A study of Homo sapiens with 16 samples.

Results

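The Sorafenib-resistant cell lines Huh7-IR and Huh7-CR were compared directly with each other, 2 libraries of each, that is 4 of the 16 RNA-seq libraries of the series. They were chosen by their labels alone. No parental library entered the contrast between them, while all 16 libraries gave the shared estimate of the spread. Huh7 is a line derived from a hepatocellular carcinoma (HCC), and Sorafenib is an oral multi-kinase inhibitor used against HCC. Huh7-IR cells were selected in rising concentrations of the drug and Huh7-CR cells in a high concentration from the start, and the labels give 7 μM Sorafenib for all 4 libraries. The series also holds parental Huh7 cells, Huh7 cells labelled DMSO and the same 4 groups of Hep3B, another HCC line. Each regimen is thus represented by 1 established line, and nothing in the labels says that its replicates are separate cultures. The p-values therefore measure the spread between replicate libraries, pooled over all 8 groups and not taken from these 4 alone. Groups that hardly express a gene, as resistant Hep3B cells for ACTA2 and NCAM1, enter its estimate too. The labels do not say whether the spread is technical. The paper describes biological triplicates for its RNA sequencing, whereas the series holds 2 libraries of each group. Differences between Huh7-IR and Huh7-CR cells cannot be told apart from differences that would arise between any pair of separately kept sublines.

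Drug selection enriches cells that survive the treatment, and lines selected by different schedules can end in different transcriptional states. A hepatocyte secretes most plasma proteins, among them albumin and apolipoprotein B, under a set of liver transcription factors with HNF4A at its center. HCC lines keep a part of this program, and it is often reduced when the cells take on mesenchymal or progenitor features.

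Expression is given as CPM, the read count of a gene scaled to a common library total, and differences are IR minus CR on the log2(CPM + 1) scale ± standard error (SE), which understates the change of low genes. The libraries held 60321745 and 46613302 reads in Huh7-IR replicates 1 and 2, and 64697819 and 76407060 reads in Huh7-CR cells. A gene was called at a Benjamini-Hochberg (BH) adjusted p under 0.05 and a log2 difference of at least 0.58 in size, in a limma model of all 16 libraries over 15019 genes. The hepatocyte markers ALB, HNF4A and FOXA2 were above 10 CPM in all 4 libraries, while APOA1 stayed under 1 CPM, so the label of a hepatocyte-derived line held for only a part of its defining markers. Of the defining markers of other cell types, CLDN5, CD3E, MS4A1, NKG7 and TYROBP were at 0 in all 4 libraries and CDH5 was at 0 in 3 of them. The summed level of the 3 tested endothelial markers was 9.56 and 17.8 CPM in Huh7-IR and 13.4 and 14 CPM in Huh7-CR cells. For the 5 tested leukocyte markers it was 48.6 and 80.3 against 80.8 and 114 CPM, with most of it from CD68 and LYZ.

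The 2 regimens differed at 2051 genes, with 1236 above and 815 below the CR level in Huh7-IR cells. These were 13.7% of the genes tested, 8.23% higher and 5.43% lower. All 2051 had both IR libraries on the same side of both CR libraries, which 57.4% of all tested genes had. The median difference of all genes was 0.09, with 8933 of the 15019 above 0 and 6086 below. The balance of directions depended on the scaling, since 60.3% of the called genes were higher in IR with CPM, 46.8% with TMM factors, 47.3% after quantile normalization and 47.5% with edgeR. The number of calls rested on the estimate of the spread. It fell to 756 (5.03%) when each group was weighted by the agreement of its own replicates, to 194 with the 8 Huh7 libraries alone and to 0 with the 4 resistant Huh7 libraries alone, where 2428 genes had an unadjusted p under 0.05 and the same log2 difference (limma). Leaving out 1 library in turn gave 1652 calls without IR replicate 1, 2878 without IR replicate 2, 879 without CR replicate 1 and 479 without CR replicate 2. Of the 108 genes named here that were called, 50 were called whichever library was left out, and 31, 19, 41 and 52 were not called without IR replicate 1, IR replicate 2, CR replicate 1 and CR replicate 2. Of the 31 gene lists with a call 28 had a number of calls that moved by over 1.5 times when 1 library was left out. On the 4 libraries alone, edgeR called 0 genes with 2739 at an unadjusted p under 0.05, and DESeq2 called 1786. An exact permutation test of 2 against 2 libraries cannot give a p below 0.333.

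**Figure D1:**
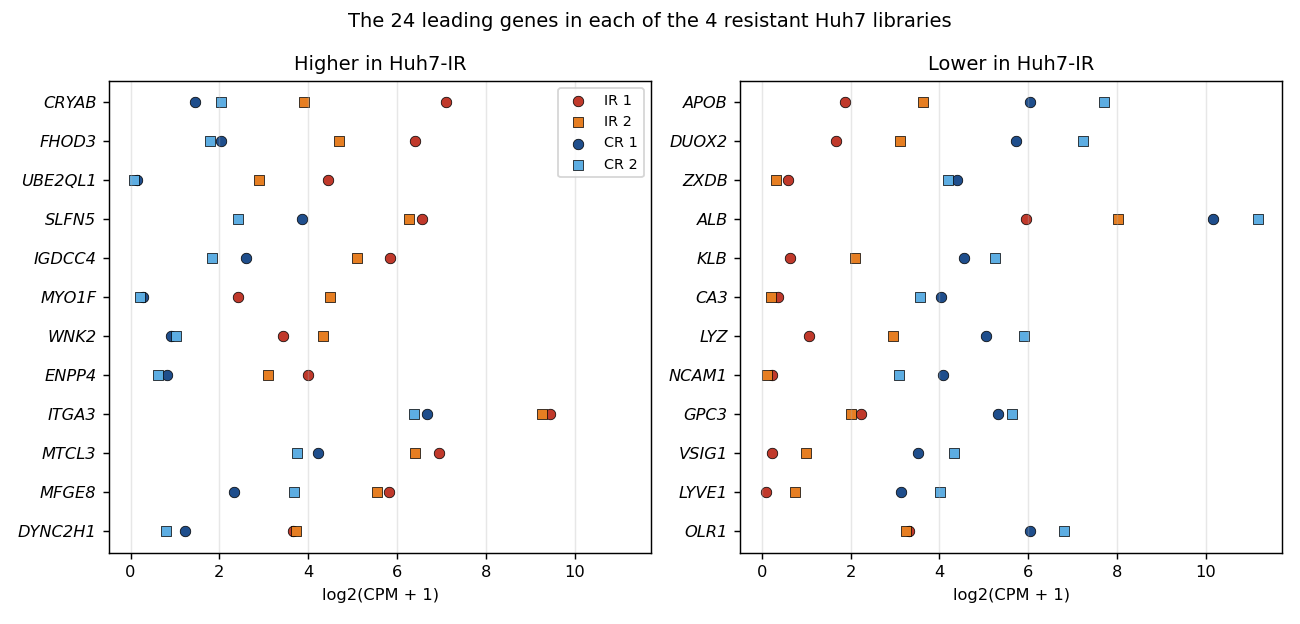
Level of the 12 leading genes in each direction in the 4 resistant Huh7 libraries, 1 point per library, on a log2(CPM + 1) axis. In every row the 2 IR points lie on the same side of the 2 CR points, by the rule that chose the genes, and the 2 IR points of CRYAB, MYO1F, APOB, ALB and LYZ lie far apart.

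The 12 leading genes in each direction were the called genes with the largest difference that reached a mean of at least 5 CPM in 1 regimen. All 24 were called the same way with TMM factors, after quantile normalization, with edgeR and DESeq2, and with DESeq2 on the 4 resistant Huh7 libraries alone. With library weights 23 of them were called, all but APOB. With the 8 Huh7 libraries alone limma called 18 of the 24, without CRYAB, MYO1F, MFGE8, APOB, ALB and LYZ, and edgeR called 15. With the 4 resistant Huh7 libraries alone limma and edgeR called 0 genes.

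Several hepatocyte genes were among the 12 leading decreases, beside genes of other classes. ALB (chromosome 4, 74262831 to 74287199 in GRCh37), which encodes albumin, was at 60.6 and 260.8 CPM in the IR libraries and at 1147 and 2305 CPM in the CR libraries. Both IR libraries lay far below both CR libraries, with a log2 difference of -3.68 ± 0.61 (n = 2 against 2, limma, adjusted p = 0.0032). APOB, the structural protein of very low density lipoproteins, was at 2.65 and 11.5 CPM in IR and at 64.8 and 207 CPM in CR cells, a difference of -4.12 ± 0.87 (adjusted p = 0.011, limma). The APOB call was lost without IR replicate 1, at -3.23 (limma, adjusted p = 0.062), and without CR replicate 2, at -3.29 (adjusted p = 0.10). Over all alternatives, edgeR and DESeq2 included, its adjusted p lay between 0.00022 and 0.14.

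KLB encodes beta-Klotho, the co-receptor through which hepatocytes respond to FGF19 and FGF21. Its level was 0.547 and 3.26 CPM in IR and 22.6 and 37.2 CPM in CR cells, and the log2 difference was -3.55 ± 0.38 (adjusted p = 0.00019, limma). GPC3, an oncofetal glypican used as a marker of HCC, was at 3.73 and 3.05 CPM in IR and at 39.2 and 48.4 CPM in CR cells. The IR libraries of GPC3 were close together and the regimens did not overlap (-3.35 ± 0.49, adjusted p = 0.0016, limma). In parental cells, which were outside the contrast, GPC3 was at 460 and 513 CPM and KLB at 167 and 184 CPM. Both resistant lines were thus below the parental level and Huh7-IR cells furthest below.

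Of 27 hepatocyte plasma protein genes tested, 6 were called lower (ALB, APOB, AMBP, HP, FGG and AFP) and 1 higher in Huh7-IR cells, with a median of -0.41. The shares over all tested genes were 5.43% lower and 8.23% higher. AMBP, the precursor of alpha-1-microglobulin and bikunin, was at 1.24 and 2.21 against 10.2 and 13.8 CPM (-2.26 ± 0.31, adjusted p = 0.00098, limma). AFP, the fetal counterpart of albumin, was at 3.12 and 2.79 against 11.3 and 20.1 CPM (-2.03 ± 0.54, adjusted p = 0.028, limma). AFP was not called with library weights, with a pseudocount of 4 CPM or without the filter. Its call was also lost with any single IR or CR library left out, where the difference ranged from -2.41 to -1.64. The exception was ITIH2, a heavy chain of the inter-alpha-trypsin inhibitor family, at 16.1 and 40.2 against 3.26 and 6.11 CPM (2.27 ± 0.48, adjusted p = 0.011, limma). ITIH2 was not called with library weights (adjusted p = 0.063, limma), and its call was lost without CR replicate 1, at 1.90. The IR libraries were unequal over this list, since the median was -1.14 in IR replicate 1 and -0.07 in IR replicate 2 against the mean of the CR libraries. Without IR replicate 1 the calls were 2 lower and 1 higher, without IR replicate 2 they were 10 lower and 1 higher, and without CR replicate 2 they were 2 lower and 1 higher.

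The transcription factors of the hepatocyte moved in both directions. HNF4A was at 23.7 and 63.8 CPM in IR and at 72.1 and 110 CPM in CR cells (-1.17 ± 0.34, adjusted p = 0.038, limma), with the groups apart but IR replicate 2 close to CR replicate 1. It was not called without IR replicate 1, CR replicate 1 or CR replicate 2. NR5A2, a nuclear receptor of bile acid and cholesterol metabolism, was at 3.66 and 11.8 against 23.1 and 37.6 CPM (-1.98 ± 0.36, adjusted p = 0.0047, limma). PROX1, a homeobox factor of early liver development, and NR1I2, the xenobiotic receptor PXR, were called lower as well, at -1.51 ± 0.30 and -1.47 ± 0.30. The 16 factors tested had a median of -0.15, with 4 called lower and 1 higher, and FOXA2 (-0.29 ± 0.26) did not pass the test. For comparison, 5.43% of all tested genes were called lower and 8.23% higher.

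Of 20 drug metabolism enzymes tested, 5 were called lower and 0 higher, with a median of -0.48, and 0 were called without CR replicate 2. They were the arylamine acetyltransferases NAT1 and NAT2, the glucuronosyltransferases UGT2B7 and UGT1A9, and the estrogen sulfotransferase SULT1E1. UGT1A9, which shares its 3′ exons with the other UGT1A genes so that its reads cannot be assigned with certainty, was at 6.88 and 4.70 against 17.5 and 27.4 CPM (-1.77 ± 0.46, adjusted p = 0.023, limma). Among 14 drug and bile acid transporters, ABCC5 was called higher (0.70 ± 0.16) and none lower. Over all tested genes 5.43% were called lower and 8.23% higher.

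The gene with the largest decrease outside the hepatocyte lists was DUOX2 (chromosome 15, 45384848 to 45406370 in GRCh37), an NADPH oxidase that releases hydrogen peroxide at the apical surface of epithelia. It was at 2.21 and 7.62 CPM in Huh7-IR and at 51.5 and 149 CPM in Huh7-CR cells, so that both IR libraries were below both CR libraries (-4.08 ± 0.48, adjusted p = 0.00038, limma). In parental cells DUOX2 was at 0.204 and 0.0804 CPM, below both resistant lines. Its maturation factor DUOXA2, added here after its values were seen, was at 0.0497 and 0.279 against 3.28 and 12.5 CPM (-2.71 ± 0.36, adjusted p = 0.00092, limma). The genes lie head to head, and their promoter windows, taken as 250 bases before to 50 bases after each start, share 253 of 300 bases. The window of DUOXA2 (chr15:45114076-45114375, plus strand, RefSeq on GRCh38.p14) is shown because the pair moved together, with the motif TATAAAA, searched on both strands, in capitals.
DUOXA2: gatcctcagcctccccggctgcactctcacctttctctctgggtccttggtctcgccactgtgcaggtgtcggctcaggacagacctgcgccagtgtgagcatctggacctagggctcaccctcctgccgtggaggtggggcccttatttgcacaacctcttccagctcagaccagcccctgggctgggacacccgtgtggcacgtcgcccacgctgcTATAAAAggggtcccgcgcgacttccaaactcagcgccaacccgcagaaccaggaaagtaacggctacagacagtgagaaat
The motif starts 32 bases before the start of DUOXA2 on its own strand and lies on the opposite strand in the window of DUOX2. It was found on either strand in 4.71% of the 27305 RefSeq promoter windows of this length, and a match of letters shows no binding.

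Other genes lower in Huh7-IR cells belonged to several classes. LYZ (lysozyme) was at 1.09 and 6.80 against 32.3 and 58.8 CPM (-3.46 ± 0.69, adjusted p = 0.0081, limma), and the call was lost without CR replicate 2, at -3.04 (adjusted p = 0.077, limma, with 2.3e-05 to 0.14 over the alternatives, edgeR and DESeq2 included). NCAM1, a neural adhesion molecule, was at 0.182 and 0.0858 CPM in IR and at 15.9 and 7.47 CPM in CR cells (-3.40 ± 0.23), while parental cells held 0.0437 and 0 CPM. Of these 6 libraries it was thus found almost only in the CR ones. LYVE1, a hyaluronan receptor, was likewise higher in the CR libraries, with 0.0663 and 0.686 against 7.85 and 15.2 CPM (-3.16 ± 0.33). The lectin-like receptor of oxidized LDL, OLR1, was at 8.90 and 8.43 against 65.0 and 112 CPM (-3.16 ± 0.35), and the junctional protein VSIG1 at 0.182 and 0.987 against 10.5 and 19.1 CPM (-3.31 ± 0.44). CA3, a muscle-type carbonic anhydrase, was at 0.282 and 0.150 against 15.5 and 10.9 CPM (-3.53 ± 0.33). All of these differences had a limma adjusted p under 0.05.

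ZXDB, a zinc finger gene on the X chromosome, showed the most even separation of the leading decreases. It was at 0.514 and 0.257 CPM in IR and at 20 and 17.3 CPM in CR cells (-3.83 ± 0.22, adjusted p = 7.3e-06, limma), and at 11.7 and 12.8 CPM in parental cells. ZXDA, its near-identical neighbor that can share reads with it and was looked up after the values of ZXDB were seen, was at 0.0995 and 0.0429 against 3.04 and 2.77 CPM (-1.87 ± 0.18). The IR libraries were thus below both the CR and the parental libraries for ZXDB.

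Among the called genes the largest decreases in CPM were in ARHGAP5, ALB, TMSB4X and TPM4. A larger decrease was in FN1 (fibronectin), looked up after its values were seen, at 3835 and 7038 against 9066 and 10560 CPM, which did not pass the test (-0.91 ± 0.30, adjusted p = 0.056, limma). ARHGAP5, a GTPase-activating protein, was at 1223 and 1323 against 3080 and 2831 CPM (-1.21 ± 0.15, adjusted p = 0.00068, limma). TMSB4X, which encodes the actin-binding peptide thymosin beta 4 and has many processed copies in the genome, was at 285.8 and 370.9 against 1037 and 1116 CPM (-1.72 ± 0.24). TPM4, a tropomyosin of the actin cytoskeleton, was at 1142 and 1148 against 1939 and 1806 CPM (-0.71 ± 0.17).

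Among the genes called higher in Huh7-IR cells, PSAP, ITGA3, LAMB1 and CTSD had the largest gains in level. ITGA3 (chromosome 17, 48133332 to 48167845), the alpha subunit of a laminin receptor, was at 702 and 611 CPM in IR and at 101 and 82.3 CPM in CR cells (2.83 ± 0.33, adjusted p = 0.00033, limma). The IR libraries were close together and the groups were well apart. LAMB1, a laminin chain, was at 1031 and 1061 against 586 and 584 CPM (0.84 ± 0.13, adjusted p = 0.0019, limma). PSAP, the precursor of the saposins, was at 1959 and 2188 against 1198 and 1269 CPM (0.75 ± 0.18), and CTSD, the lysosomal protease cathepsin D, at 375 and 503 against 99.7 and 140 CPM (1.87 ± 0.28, adjusted p = 0.0017, limma). In a list of 44 lysosomal genes written after these values were seen, 4 were called higher (CTSD, PSAP, LAMP1 and HEXA) and 0 lower, with a median of 0.14, near that of all genes. Among all tested genes 8.23% were called higher, a share near that of the list.

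The gene with the largest increase, CRYAB, encodes the small heat shock protein alpha-B-crystallin. It was at 136 CPM in IR replicate 1 and 13.9 CPM in IR replicate 2, and at 1.72 and 3.09 CPM in CR cells (3.76 ± 0.70, adjusted p = 0.0056, limma). Both IR libraries were above the CR libraries, but they differed from each other by 3.20 on the log2 scale. FHOD3, a formin that assembles actin, was at 83.2 and 25.1 against 3.11 and 2.45 CPM (3.64 ± 0.42, adjusted p = 0.00033, limma). UBE2QL1, a ubiquitin-conjugating enzyme-like gene, was at 20.7 and 6.41 against 0.108 and 0.0524 CPM (3.55 ± 0.33), and its parental level was 0 and 0.0268 CPM.

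MYO1F, a class I myosin known from leukocytes, was higher in IR replicate 2 than in IR replicate 1, at 4.34 and 21.7 against 0.216 and 0.157 CPM (3.21 ± 0.47). SLFN5, an interferon-inducible Schlafen gene, was at 94.2 and 76.1 against 13.6 and 4.34 CPM (3.28 ± 0.34, adjusted p = 0.00017, limma). IGDCC4, a member of the DCC receptor family, was at 56.1 and 33.4 against 5.02 and 2.59 CPM (3.25 ± 0.36). MFGE8, a secreted protein that bridges integrins and phosphatidylserine, was at 55.8 and 46.1 against 4.03 and 11.7 CPM (2.69 ± 0.39), and DYNC2H1, the heavy chain of the ciliary dynein, at 11.7 and 12.2 against 1.33 and 0.733 CPM (2.69 ± 0.20). The kinase WNK2 (9.88 and 19.1 against 0.881 and 1.02 CPM), the phosphodiesterase ENPP4 (15.0 and 7.62 against 0.757 and 0.523 CPM) and MTCL3 (123 and 84.0 against 17.6 and 12.5 CPM) completed the leading increases. After an adjustment for GC content 23 of the 24 leading genes were called, and MTCL3 had no GC value.

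Adhesion and cytoskeletal genes did not move in 1 direction. Integrins are heterodimeric receptors for the extracellular matrix, and of 18 subunits tested 4 were called higher (ITGA3, ITGA10, ITGB5 and ITGA7) and 3 lower (ITGA2, ITGA1 and ITGA11), with a median of -0.36. The calls were 3 higher and 2 lower without IR replicate 1, 6 and 7 without IR replicate 2, 2 and 2 without CR replicate 1, and 2 and 0 without CR replicate 2. ITGA2, a collagen receptor subunit, was at 123 and 200 against 380 and 333 CPM (-1.18 ± 0.25, adjusted p = 0.010, limma). Of 22 collagen and laminin genes, LAMB1, LAMB2 and COL6A1 were called higher and COL3A1 lower. Calls over all tested genes were 8.23% higher and 5.43% lower. Of 19 mesenchymal genes, ACTA2 (smooth muscle actin) and S100A4 were called lower and none higher, with a median of -0.39. ACTA2 was at 2.30 and 1.65 against 7.39 and 9.83 CPM (-1.69 ± 0.16, adjusted p = 7.1e-05, limma), and S100A4 at 12.3 and 6.22 against 37.1 and 56.9 CPM (-2.26 ± 0.39). VIM, the mesenchymal intermediate filament vimentin, was at 3639 and 2646 against 2942 and 2286 CPM, with overlapping groups (0.26 ± 0.25, adjusted p = 0.50, limma).

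Of 9 fibroblast markers 6 were tested, and LUM, COL3A1 and PDGFRA were called lower, with a median of -1.34. Among all tested genes 5.43% were called lower. COL1A1, a fibrillar collagen of the same list, lay on the other side, at 60.7 and 54.4 against 31.1 and 32.4 CPM (0.83 ± 0.55, adjusted p = 0.31, limma). The summed level of the 6 genes was 314 and 340 CPM in Huh7-IR and 504 and 787 CPM in Huh7-CR cells, most of it from COL1A2 and LUM. DCN, FAP and POSTN, which define fibroblasts, did not exceed 2.50 CPM in any of the 4 libraries. PDGFRA, also a receptor tyrosine kinase targeted by several inhibitors, was at 1.81 and 2.79 against 13.8 and 17.6 CPM (-2.35 ± 0.38, adjusted p = 0.0030, limma). Of the other receptor tyrosine kinases only ERBB4 was called, at 5.74 and 13.4 against 21.3 and 26.7 CPM (-1.34 ± 0.32), and AXL was at 214 and 190 against 208 and 140 CPM (0.24 ± 0.37, adjusted p = 0.70, limma). Whether cells of another type had a part in the fibroblast marker difference was not tested.

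Of 22 YAP and TEAD target genes, which respond to cell tension and Hippo signaling, 4 were called higher (ARHGEF17, AMOTL2, LATS2 and NT5E) and 0 lower, with a median of 0.12. These calls became 2 higher without IR replicate 1, 5 higher and 2 lower without IR replicate 2, 1 higher without CR replicate 1, 0 without CR replicate 2 and 1 higher with library weights. PLAU, the urokinase plasminogen activator, was at 57.6 and 59.7 against 14.1 and 17.5 CPM (1.83 ± 0.37, adjusted p = 0.0089, limma). It was the only one of 15 genes of the plasminogen and metalloprotease list that was called higher, while ADAMTS9 and SERPINB2 were called lower. Of 14 Wnt and beta-catenin targets, GPC3, LGR5 and DKK1 were called lower. LGR5, a stem cell receptor for R-spondins, was at 0.729 and 1.16 against 6.32 and 10.6 CPM (-2.26 ± 0.36). Among 18 genes of ERK output, CCND1 was called lower (-0.75 ± 0.17). MYC (0.67 ± 0.21, adjusted p = 0.048, limma) and ETV4 (0.73 ± 0.23, adjusted p = 0.049, limma) were called higher, just inside the threshold. With library weights CCND1 was called, and MYC and ETV4 were not. The shares over all tested genes, for comparison with each of these lists, were 8.23% higher and 5.43% lower.

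Of 25 genes of DNA replication and mitosis tested, 12 were called lower in Huh7-IR cells and 0 higher (5 and 0 with library weights), and 24 of the 25 were below 0, with a median of -0.91. Among all tested genes 5.43% were called lower and 6086 of 15019 lay below 0. CCNB1, the mitotic cyclin B1, was at 44.4 and 53.9 against 130 and 130 CPM (-1.39 ± 0.21, adjusted p = 0.0019, limma). The mitotic kinase AURKA was at 38.2 and 43.7 against 83.5 and 91.0 CPM (-1.07 ± 0.18), and CCNA2, the S and G2 phase cyclin, at 35.4 and 36.1 against 81.7 and 72.7 CPM (-1.09 ± 0.19). For these 3 genes the IR libraries were nearly equal. RRM2, a subunit of ribonucleotide reductase, was at 6.55 and 57.0 against 70.0 and 77.4 CPM, so that most of its difference came from IR replicate 1, and it did not pass the test (-1.83 ± 0.64, adjusted p = 0.068, limma). MKI67, the proliferation antigen Ki-67, was at 50.1 and 180 against 205 and 309 CPM (-1.39 ± 0.44, adjusted p = 0.051, limma). The list median was -1.17 in IR replicate 1 and -0.38 in IR replicate 2, with 3 genes called lower without IR replicate 1, 22 without IR replicate 2, 4 without CR replicate 1 and 3 without CR replicate 2.

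The replication-dependent histones, whose transcripts mostly lack a poly(A) tail and are near-identical to each other, moved in the same direction as the cell cycle genes. Of 63 tested, 14 were called lower and 0 higher, with a median of -0.62. Over all tested genes 5.43% were called lower. H2BC18 was at 3.88 and 5.00 against 12.4 and 18.1 CPM (-1.57 ± 0.23, adjusted p = 0.0017, limma). In this list the median was -1.01 in IR replicate 1 and -0.23 in IR replicate 2. The calls were 4 without IR replicate 1, 29 without IR replicate 2, 7 without CR replicate 1 and 2 without CR replicate 2, all lower.

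Cholesterol synthesis genes moved in 1 direction, though most of them did not pass the test. All 24 genes tested had a difference below 0, with a median of -0.86, and 4 were called lower, among them FDPS, EBP and MSMO1. Among all tested genes 5.43% were called lower. The IR and CR libraries did not overlap at 19 of the 24, against 57.4% of all tested genes. FDPS, which makes farnesyl diphosphate, was at 161 and 109 against 386 and 436 CPM (-1.63 ± 0.31, adjusted p = 0.0065, limma). In FDPS, IR replicate 2 was the lower of the IR libraries, unlike in the cell cycle list. The 4 calls became 5 without IR replicate 1, 2 without IR replicate 2, 1 without CR replicate 1, 0 without CR replicate 2, 1 with library weights and 8 after GC adjustment. Of 13 fatty acid synthesis genes the elongase ELOVL6 was called lower (-1.29 ± 0.23).

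Of 20 interferon-stimulated genes tested, 5 were called higher in Huh7-IR cells and 0 lower, 19 lay above 0, and the median was 0.63. Among all tested genes 8.23% were called higher and 8933 of 15019 lay above 0. IFI44L was at 4.03 and 1.97 against 0.216 and 0.170 CPM (1.70 ± 0.19, adjusted p = 0.00031, limma), and IFI44 at 6.08 and 1.57 against 0.263 and 0.144 CPM (1.83 ± 0.32). IFIT2, which binds viral RNA, was at 61.4 and 22.5 against 13.4 and 12.9 CPM (1.44 ± 0.34, adjusted p = 0.017, limma). IFIT3 and IFIH1, the RNA sensor MDA5, were the others called. In all 5 IR replicate 1 was the higher IR library, and the list median was 0.95 in it and 0.33 in IR replicate 2. With IR replicate 1 left out 3 genes were called higher, with IR replicate 2 left out 10, and with either CR library left out 2.

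Of genes of other stress responses few were called, and the number rested on single libraries. The 22 genes of the integrated stress and unfolded protein responses had a median of 0.41, and HYOU1, a chaperone of the endoplasmic reticulum, was called, at 335 and 298 against 191 and 173 CPM (0.79 ± 0.14, adjusted p = 0.0042, limma). Metallothioneins, which bind zinc and copper, had a list median of 1.11 over 8 genes and no call. MT1X was at 72.3 and 27.8 against 20.1 and 19.2 CPM (1.15 ± 0.39, adjusted p = 0.061, limma), and the list median was 1.65 in IR replicate 1 and 0.24 in IR replicate 2. Of 20 NRF2 targets HMOX1 (0.85 ± 0.23) and TKT (0.70 ± 0.20) were called higher. Of 15 BCL2 family genes the anti-apoptotic BCL2L2 (0.69 ± 0.16) and the pro-apoptotic BMF (1.5 ± 0.37) were called higher, and 13 of 15 lay above 0. Over all genes 8.23% were called higher and 8933 of 15019 lay above 0. Without IR replicate 2 the calls were 7 higher and 1 lower in the stress and unfolded protein list, 4 higher in the metallothioneins, 5 higher in the NRF2 list and 5 higher in the BCL2 family. Without IR replicate 1 the calls were 1 higher, 1 lower, 0 and 1 higher in the same order, without CR replicate 1 they were 1 higher, 0, 0 and 1 higher, and without CR replicate 2 they were 0 in all 4 lists. The NRF2 calls were 0 with library weights and after GC adjustment.

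**Figure D2:**
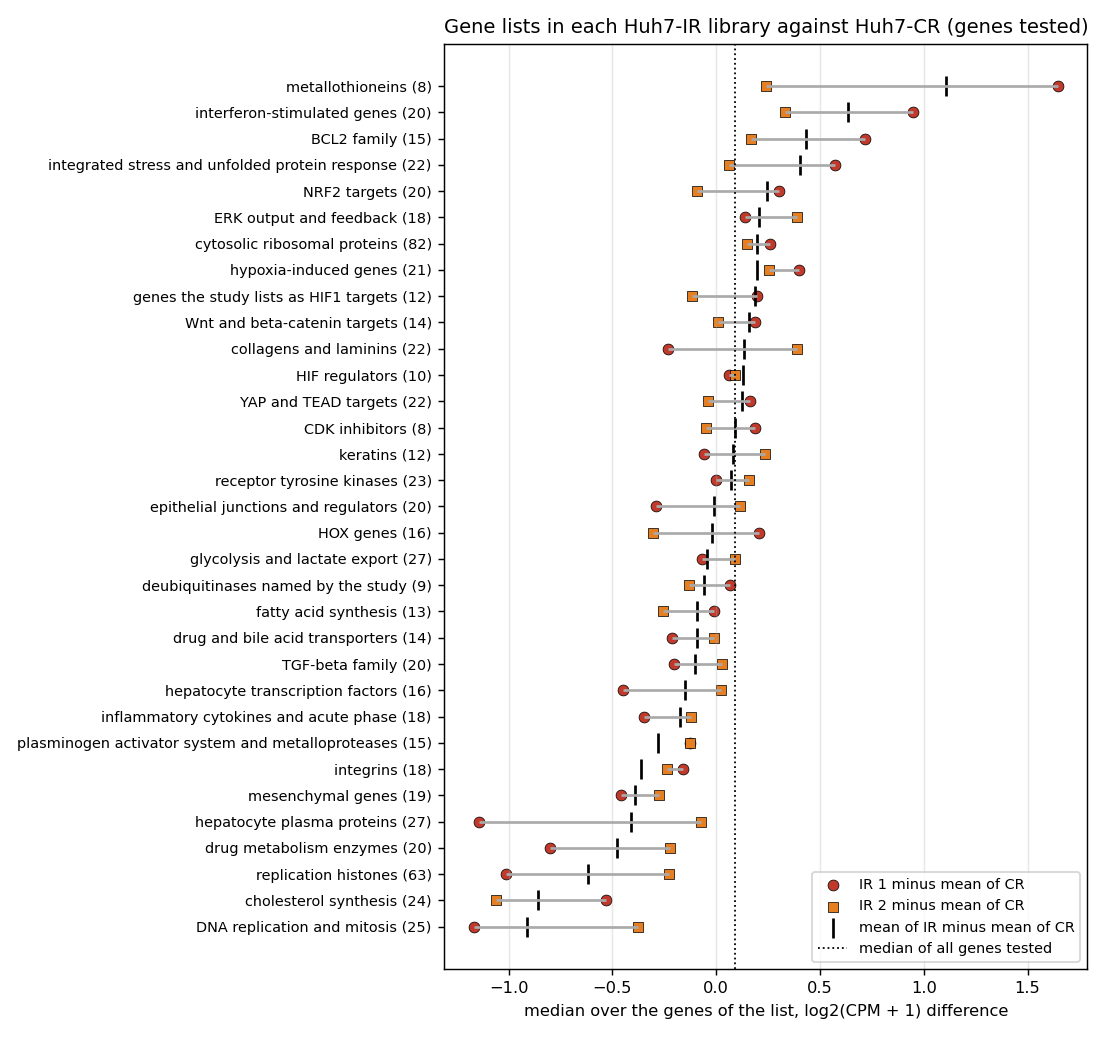
Median log2(CPM + 1) difference of each gene list with at least 8 genes tested, for IR replicate 1 (circles) and IR replicate 2 (squares) against the mean of the CR libraries, with the median of the mean difference as a bar and the number of genes in brackets. IR replicate 1 lies further from CR than IR replicate 2 for the metallothioneins (1.65 and 0.24), plasma proteins (-1.14 and -0.07) and DNA replication genes (-1.17 and -0.38), and the reverse holds for cholesterol synthesis (-0.53 and -1.06).

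The study addressed HIF1 signaling and glycolysis, and these genes hardly separated the regimens. HIF1A was at 437 and 566 CPM in IR and at 588 and 790 CPM in CR cells (-0.45 ± 0.22, adjusted p = 0.17, limma), and HK2, a hexokinase, at 99.2 and 123 against 147 and 154 CPM (-0.44 ± 0.22, adjusted p = 0.18, limma). The glucose transporter SLC2A1 was at 55.4 and 60.4 against 96.4 and 78.8 CPM (-0.58 ± 0.31, adjusted p = 0.21, limma), and the lactate exporter SLC16A3 at 48.3 and 105 against 42.4 and 53.2 CPM (0.58 ± 0.55, adjusted p = 0.50, limma). None of the 27 glycolysis genes and none of the 21 hypoxia-induced genes was called, against 13.7% of all tested genes. USP29 did not exceed 0.0262 CPM and SLC16A8 was at 0 in the 4 libraries, so these were not tested. In these libraries 3 reads, the limit that a count of 0 allows, are 0.0393 to 0.0644 CPM, for counting error only.

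EGLN1, the prolyl hydroxylase that marks HIF1α for degradation, was the called exception among 10 HIF regulators, at 64.3 and 47.2 against 156 and 170 CPM (-1.55 ± 0.17, adjusted p = 0.00030, limma). AHNAK2, a giant scaffold protein that the study lists as a HIF1 target, was at 426 and 251 against 122 and 97.7 CPM (1.58 ± 0.49, adjusted p = 0.049, limma), just inside the threshold. USP36 was the only one of 9 tested deubiquitinases named by the study that was called, at 162 and 123 against 72.0 and 60.3 CPM (1.09 ± 0.18, adjusted p = 0.0031, limma). Of the 12 tested genes that the study lists as HIF1 targets, AHNAK2 was called higher and EGLN1, also on that list, lower, with a median of 0.19. The shares called over all tested genes were 8.23% higher and 5.43% lower. The study picked its HIF1 targets as highly expressed in the resistant cells, so their count is not independent of these libraries.

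The remaining lists held few calls. The cell cycle inhibitor list had CDKN3 called lower, the inflammatory list CCL2 higher and CXCL6 and CXCL8 lower, and the epithelial list ESRP2 higher. Of 16 HOX genes HOXC4, HOXC8, HOXC9 and HOXC10, all of the HOXC cluster, were called lower and 0 higher, with HOXC10 at 3.76 and 1.65 against 13.7 and 10.9 CPM (-1.90 ± 0.28, adjusted p = 0.0017, limma). Of 82 cytosolic ribosomal protein genes RPL36 was called higher and RPS27L lower, with a median of 0.20. No gene of the keratin, TGF-beta or cancer-germline lists (12, 20 and 5 tested) was called. Over all tested genes the share called was 13.7%, with 8.23% higher and 5.43% lower.

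The 2 Huh7-IR libraries differed from each other more than the 2 Huh7-CR libraries did. The SD over genes of the difference between replicates was 0.566 in IR and 0.290 in CR cells, and Pearson's correlation across genes, which are not independent replicates, was 0.971 and 0.993. At least 1 on the log2 scale separated the IR libraries at 1110 genes (7.39%), 529 higher in replicate 1 and 581 higher in replicate 2. In CR cells there were 159 such genes (1.06%). Of the other groups only the Huh7 DMSO libraries were as far apart, with an SD of 0.571, and the remaining groups lay between 0.236 and 0.310. Of the 1110 genes 198 were called between the regimens, and at 688 of them the IR and CR libraries overlapped. At 92 called genes the IR libraries lay further apart than the means of the regimens.

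**Figure D3:**
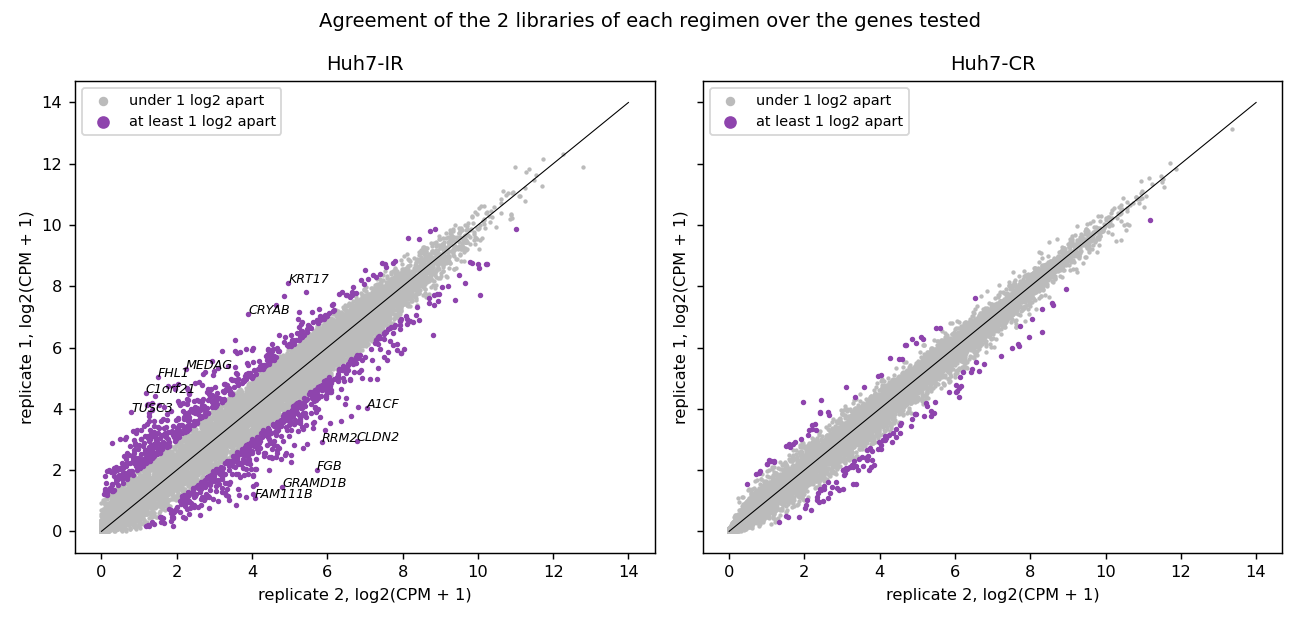
Level of each tested gene in replicate 1 against replicate 2 of Huh7-IR (left) and Huh7-CR cells (right), on log2(CPM + 1) axes, with genes at least 1 apart in color. The IR panel holds 1110 and the CR panel 159 such genes, and the 12 named genes are those furthest apart in the IR panel.

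Among the genes that separated the IR libraries, those higher in replicate 1 were KRT17, a keratin of basal epithelia, at 272 and 30.2 CPM, FHL1, a LIM domain protein, at 32.1 and 1.82 CPM, and TUSC3, a subunit of the oligosaccharyltransferase complex, at 13.9 and 0.729 CPM. CRYAB, C1orf21 and MEDAG completed the 6 largest differences in this direction. Replicate 2 was close to the CR libraries in KRT17 (21.3 and 25.5 CPM) and in TUSC3 (0.819 and 0.458 CPM), while for FHL1 it was replicate 1 that was close to them (32.7 and 27.3 CPM). Of these 6 genes CRYAB and MEDAG were called between the regimens.

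Higher in replicate 2 were CLDN2, a pore-forming claudin, at 6.73 and 109 CPM, FGB, the fibrinogen beta chain, at 3 and 51.7 CPM, and A1CF, the RNA-binding partner of the APOB mRNA editing enzyme, at 15.1 and 132 CPM. GRAMD1B (1.74 and 27.0 CPM), FAM111B (1.11 and 15.9 CPM) and RRM2 were the others. None of these 6 genes was called, and for 5 of them replicate 2 was nearer to both CR libraries than replicate 1 on the log2 scale, while CLDN2 was at 22.6 and 64.8 CPM in CR cells, between the IR libraries. Of the 27 plasma protein genes 12 were higher by at least 1 in replicate 2 and 0 in replicate 1. Of the 25 DNA replication genes all 25 were higher in replicate 2, 13 of them by at least 1. In the opposite direction, 7 of 8 metallothioneins and 8 of 20 interferon-stimulated genes were higher by at least 1 in replicate 1.

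The replicates of Huh7-CR cells differed in part along the same genes. The correlation across genes of the difference between replicates 1 and 2 was 0.44 between IR and CR cells, given as a description since all points share the 4 libraries. The plasma protein list had a median difference between replicates of -0.55 in IR and -0.73 in CR cells, so replicate 2 was higher in both, while for DNA replication genes it was -1.01 and -0.16.

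In Hep3B cells the same 2 regimens were compared with other libraries, 2 of each. There 1764 genes (11.7%) were called between IR and CR cells, 801 higher and 963 lower in IR. The difference between the regimens itself differed between Huh7 and Hep3B at 3828 genes (25.5%, limma interaction contrast), 2390 of them more positive in Huh7. That number was 2071 without replicate 2 of Huh7-CR, 2075 without replicate 2 of Hep3B-IR and 2353 without replicate 2 of Hep3B-CR cells. Of the 2051 genes called in Huh7, 357 were also called in Hep3B, which is 17.4% of the Huh7 and 20.2% of the Hep3B calls, and 294 of the 357 had opposite directions. Across all genes the 2 differences had a Spearman correlation of -0.31, which is a description over genes that share 8 libraries. Both differences were related to the GC content of the gene, with a Spearman correlation of 0.36 in Huh7 and -0.29 in Hep3B, and after the GC adjustment the correlation between the lines was -0.24.

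Several leading genes had opposite directions in the lines. ITGA3 was at 189.9 and 110.5 CPM in Hep3B-IR and at 486 and 521 CPM in Hep3B-CR cells, so that it was higher under the increasing regimen in Huh7 and under the constant regimen in Hep3B (difference between the lines 4.62 ± 0.46, adjusted p = 0.00012, limma). SLFN5 and FHOD3 were likewise lower in Hep3B-IR than in Hep3B-CR cells, by -2.63 and -2.49. ALB was higher in Hep3B-IR cells, at 1682 and 5526 against 655 and 753 CPM, and KLB at 44.4 and 65.2 against 9.81 and 11 CPM. CYP2B6, a drug-metabolizing cytochrome P450, separated the regimens only in Hep3B, at 271 and 407 against 3.56 and 1.83 CPM, and stayed under 0.1 CPM in the 4 Huh7 libraries (difference between the lines -6.57, adjusted p = 4.6e-05, limma). The metallothionein MT2A was at 0.508 and 0.355 against 28.4 and 20.5 CPM in Hep3B and at 65.3 and 46.7 against 21.3 and 21.8 CPM in Huh7 cells (difference between the lines 5.45, adjusted p = 0.00082, limma). The plasma protein list had a median of 0.85 in Hep3B against -0.41 in Huh7, and the DNA replication list 0.62 against -0.91. ITIH2 and CCND1 had the same direction in both lines.

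**Figure D4:**
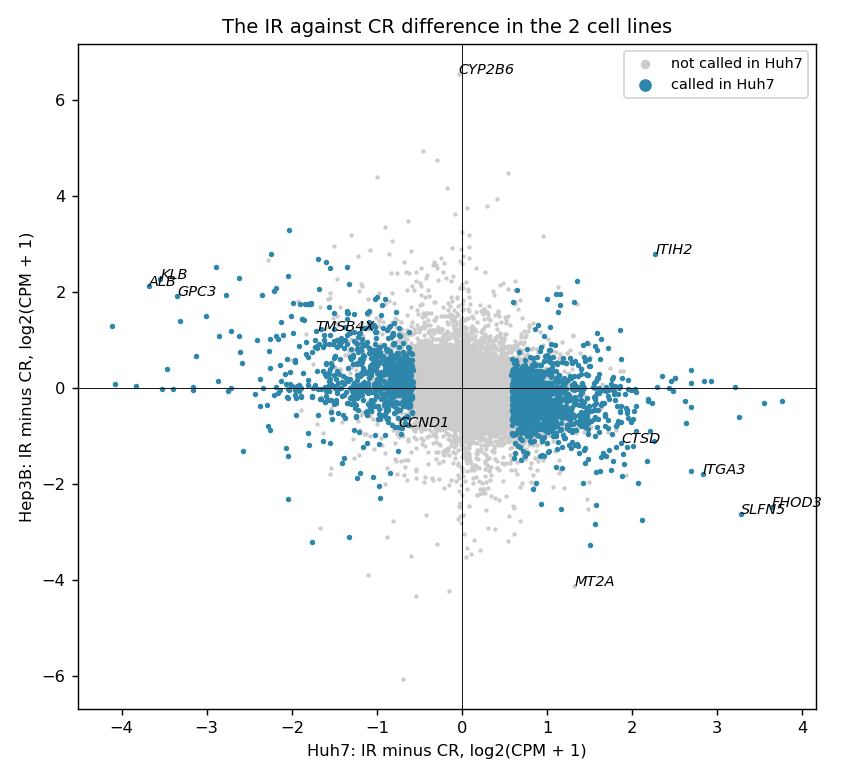
Difference between IR and CR cells of each tested gene in Huh7 (x axis) and Hep3B (y axis), on the log2(CPM + 1) scale, with the genes called in Huh7 in color. ITGA3, SLFN5 and FHOD3 lie at the lower right and ALB, KLB and GPC3 at the upper left, while CCND1 lies at the lower left and ITIH2 at the upper right.

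The difference between the regimens was unevenly spread over the chromosomes. Genes of chromosome 4 were called lower in 13.2% and higher in 1.25% of cases, with a median of -0.24, and those of the X chromosome in 10.9% and 2.51%. Chromosome 17 had 15.7% called higher and 2.85% lower, and chromosome 3 14.3% and 2.29%. The median GC content was 56.1% for the called genes higher in IR and 43.8% for those lower, against 47.5% for all genes. After the GC adjustment the median of chromosome 4 was -0.13 and that of chromosome 3 was 0.33, while chromosomes 16 and 19 moved from 0.27 to 0.17 and from 0.27 to 0.14. Within chromosome 3 each of the 6 windows of 10 Mb between 100 and 160 Mb (GRCh37) had a median between 0.37 and 0.43, and both IR libraries were above the CR mean in all of them. Before the GC adjustment some windows elsewhere were higher, such as 0.50 at 60 to 70 Mb of chromosome 20. After it the chromosome 3 windows had medians of 0.49 to 0.59, and the chromosome 20 window 0.33. On chromosome 1 the windows from 210 to 230 Mb had medians of -0.49 and -0.43, and in Hep3B of -0.22 and -0.30. The window from 70 to 80 Mb of chromosome 4 was at -0.48 in Huh7 and 0.12 in Hep3B. EGLN1 and PROX1 lie between 210 and 240 Mb of chromosome 1. The number of gene copies was not measured in these libraries.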

How the data were processed

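The deposited table gives CPM, which the authors made by mapping single-end reads to hg19 with RNA-STAR, keeping unique hits, and counting over RefSeq exons with QuasR. Strand use in counting is not given in the sources used here. In each library 100% of the values were whole reads within 0.05 reads, so depth and reads were recovered. Groups came from sample titles. Of 26258 genes, 15019 with at least 1 CPM in 2 or more of 16 libraries were tested with limma 3.58.1 (R 4.3.3, mean-variance trend) on log2(CPM + 1), with 8 groups sharing 1 spread estimate, and called at a BH-adjusted p under 0.05 and an absolute log2 difference of at least 0.58. edgeR 4.0.16 and DESeq2 1.42.0 on the recovered reads, other scalings, filters and pseudocounts, library weights, a replicate block, leaving out each library, and a GC adjustment (spline with 5 degrees of freedom, 14449 genes) were alternatives. The scripts were tested on simulated data.

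Named genes were the 12 leading calls per direction (groups not overlapping, mean of at least 5 CPM in 1 regimen), the 4 largest changes in CPM, up to 4 called members per list with the lowest adjusted p and others needed to describe the list, genes the study measured, the 6 genes per direction furthest apart between the IR libraries, and the 3 per direction that differed most from Hep3B. The genes described and the lists were chosen with earlier results of these data known. Symbols were found for 26111 identifiers. Gene coordinates are from GRCh37 and promoter windows from RefSeq on GRCh38.p14. Y-linked genes and XIST were left out, and a few items are not reported here.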

Additional observations from a re-analysis of the deposited data

Results flagged for a closer look

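The difference between the regimens differed between Huh7 and Hep3B cells at 100 of the 134 genes named here and tested, by the limma interaction contrast of the 8 resistant libraries with the same thresholds, where 25.5% of all genes passed. Most of these genes were named for a called or large Huh7 difference, which is a part of this contrast, and some for the contrast itself. Their share and signs thus follow in part from the choice of genes and do not measure how far the lines differ. The values in brackets are the log2 IR minus CR difference in Huh7 minus that in Hep3B, so that a negative value means a lower IR level relative to CR in Huh7 than in Hep3B. Of the 100 genes 39 were more positive and 61 more negative in Huh7, and 84 had fitted differences of opposite sign. For 52 of the 84 the Hep3B difference did not pass the test, and 28 of the 84 were called in both lines.

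Among the hepatocyte genes ALB (-5.80), APOB (-5.40), APOA1 (-2.76), AMBP (-3.03), HP (-1.79), AFP (-5.32), FGB (-3.74), KLB (-5.82), GPC3 (-5.27), HNF4A (-1.81), NR5A2 (-3.11), PROX1 (-2.13) and NR1I2 (-1.82) were more negative in Huh7, as were the drug enzymes CYP2B6 (-6.57), NAT1 (-1.11), NAT2 (-2.18), UGT2B7 (-2.73), UGT1A9 (-3.54) and SULT1E1 (-4.38) and the RNA-binding gene A1CF (-2.77). The other leading decreases were LYZ (-3.86), DUOX2 (-4.17), NCAM1 (-3.38), LYVE1 (-3.12), OLR1 (-3.18), VSIG1 (-4.71), CA3 (-3.50), ZXDB (-3.87), ARHGAP5 (-1.28), TMSB4X (-2.92) and TPM4 (-1.11), with DUOXA2 (-2.71) and ZXDA (-2.18) beside them. Cell cycle genes were more negative in Huh7 at CCNB1 (-2.23), AURKA (-1.69), CCNA2 (-1.88), RRM2 (-2.96), MKI67 (-2.37), CDKN3 (-1.81) and H2BC18 (-1.72), and lipid synthesis genes at FDPS (-1.98), EBP (-1.71), MSMO1 (-1.98) and ELOVL6 (-1.13). Of the matrix, mesenchymal and receptor genes ITGA2 (-1.11), ITGA1 (-1.41), COL3A1 (-1.99), ACTA2 (-1.67), S100A4 (-2.68), LUM (-2.36), PDGFRA (-4.28), ERBB4 (-2.90), ADAMTS9 (-1.24) and DKK1 (-2.76) were more negative, and so were EGLN1 (-1.73), CXCL6 (-3.51), CXCL8 (-2.95), HOXC8 (-1.03), HOXC9 (-0.84), HOXC10 (-1.90) and RPS27L (-2.15).

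The leading increases in Huh7 were more positive there, with ITGA3 (4.62), LAMB1 (0.91), CTSD (3.01), PSAP (1.36), CRYAB (4.03), MYO1F (3.20), FHOD3 (6.13), UBE2QL1 (3.86), SLFN5 (5.91), IGDCC4 (3.85), MFGE8 (2.32), DYNC2H1 (2.59), WNK2 (2.79), ENPP4 (2.71) and MTCL3 (3.09). The same held for the interferon-stimulated genes IFI44L (1.74), IFI44 (2.58), IFIT2 (2.14), IFIT3 (2.96) and IFIH1 (1.41), the metallothioneins MT1X (2.86) and MT2A (5.45) and the YAP targets ARHGEF17 (1.13), AMOTL2 (1.01) and LATS2 (0.94). The remaining genes that were more positive in Huh7 were LAMP1 (1.07), HEXA (0.76), ITGA10 (1.74), ITGB5 (0.65), PLAU (2.51), MYC (1.07), HYOU1 (1.90), BCL2L2 (0.90), AHNAK2 (4.01), USP36 (1.89), ESRP2 (1.02), RPL36 (1.56), KRT17 (3.75) and MEDAG (3.70).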

How the results depend on the processing

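With the 4 resistant Huh7 libraries alone 0 genes were called, 0 in either direction, by limma (2428 at an unadjusted p under 0.05) and by edgeR (2739), while DESeq2 called 1786. The 8 Huh7 libraries alone gave 194 calls (75 higher, 119 lower in IR) with limma and 192 (38 and 154) with edgeR, and 1458 (557 and 901) with DESeq2. These fits use fewer samples to estimate the spread. The edgeR and DESeq2 fits of Huh7 libraries alone, and a fit without the Huh7 DMSO libraries (2642 calls), were chosen after seeing the data. Library weights gave 756 (411 and 345), an unadjusted p 3148 (2012 higher), edgeR on the recovered reads 1732 (823 higher) and DESeq2 2468 (1317 lower). Over the libraries left out in turn the calls ranged from 479 to 2878 (243 to 1773 higher, 236 to 1105 lower) and the genes that differed between the lines from 2071 to 4590. The IR libraries were at least 1 apart at 591 genes with a pseudocount of 4 CPM. Beyond the fewer samples of some fits, the cause was not tested. TMM factors, quantile normalization, GC adjustment, other filters and other pseudocounts kept the total within 1.5 times. A replicate block gave 2076 calls (1244 and 832). The labels do not say whether the replicate numbers pair the samples. The correlation of same-numbered deviations was 0.44 between IR and CR, the highest of all pairs of groups, and -0.12 between IR and parental cells. Whether same-numbered IR and CR libraries are paired was not tested. Of the 108 called genes named, 71 were called with library weights, 35 with the 8 Huh7 libraries, 97 after GC adjustment and 0 with limma on the 4 libraries, and 0 reversed.

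Directions turned only in 8 of the named genes, none of them called. CLDN2 was at 0.33 with edgeR and 0.29 with DESeq2, at 0.32 with either on the 4 libraries, and at 0.33 and 0.28 on the 8. Over the libraries left out in turn the difference ranged from -0.74 to 0.16 in FOXA2, from -0.046 to 0.53 in AXL, from -3.45 to 0.10 in FHL1, from -0.44 to 2.89 in C1orf21, from -2.35 to 1.49 in CLDN2, from -3.33 to 0.39 in FGB, from -2.98 to 0.056 in A1CF and from -3.33 to 0.019 in GRAMD1B. Depth limits the values of genes under 1 CPM, and 2 libraries a group limit all of them.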
